A study of Homo sapiens with 18 samples.

Results

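The classical cadherins and catenins described here were 10 genes fixed by name, the 5 cadherins *CDH1*, *CDH2*, *CDH3*, *CDH6* and *CDH11* and the 5 catenins *CTNNA1*, *CTNNA2*, *CTNNB1*, *CTNND1* and *CTNND2*, out of 21944 genes listed in the authors' deposited table. Human pancreatic progenitors at day 19 of differentiation were dissociated and reseeded on laminin-411 (LN411), a laminin isoform of low adhesion, or on fibronectin (FN), and were sequenced as bulk poly(A) RNA. There were 6 groups of 3 samples, one for each matrix at 3, 6 and 24 h, which makes 18 samples. The protocol gives the cells as NGN3-GFP, a reporter derivative of the human embryonic stem cell line SA121, whereas the cell line label reads HUES4. The groups differ only in matrix and time as far as the labels say.

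Classical cadherins are transmembrane adhesion proteins that bind a cadherin on the neighbouring cell and thereby hold cells together at adherens junctions. Inside the cell, β-catenin (*CTNNB1*) binds the end of the cadherin tail, p120 (*CTNND1*) binds near the membrane and keeps the cadherin at the surface, and α-catenin (*CTNNA1*) connects the complex to actin. In the pancreatic epithelium E-cadherin is the classical epithelial member, and β-catenin released from junctions also acts in Wnt signalling.

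The level analysed for each gene was the authors' mean normalized count, a single average over all samples. It therefore has no error, and neither the groups nor the times can be set apart in it. A member's value was the same at 3, 6 and 24 h, with a largest relative gap of 2.47e-07, and all 10 members were listed at each of these times. The effect of LN411 on the members was not analysed here, since the remaining values of the table are the authors' own comparisons. Since the samples are bulk cultures, fewer cells of a type and less RNA per cell cannot be told apart in any level given here. The depth of single libraries is unknown.

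Of 12 pancreatic progenitor markers, all had a level, and 8 lay in the highest 10% of genes by mean normalized count per kb of the longest transcript. This count was 4 per kb of coding length, among genes with a coding sequence, and 8 per kb of all exons. Those in the highest 10% with each length included *GP2*, a surface marker of these progenitors, with a mean normalized count of 135959, and *PDX1*, a pancreatic transcription factor, with 12933. *PTF1A*, a factor of multipotent and acinar cells, was at 12.5. Of 7 mesenchymal markers, 6 had a level, from 8.78 to 7527 per kb of the longest transcript. On this scale only 1 of them, the collagen chain *COL1A2*, lay in the highest 10% of genes. The mean normalized counts were 45110 for *COL1A2*, 4091 for *COL1A1*, 868 for *PDGFRA*, 320 for *COL3A1*, 235 for *LUM* and 14.3 for *TWIST1*. The 6 endocrine markers had a median of 154 per kb. *CHGA*, a granule protein, was highest, at 2172 per kb and a mean normalized count of 4312, and alone in the highest 10%. The others had mean normalized counts of 581 for *SST*, 451 for *NEUROG3*, 71.2 for *NEUROD1*, 16.3 for *GCG* and 8.32 for *INS*. The 4 endothelial markers lay between 1.24 and 11.0 per kb and 3 of 4 neural markers between 3.55 and 61.5 per kb. Of 3 markers of undifferentiated cells, *LIN28A*, an RNA-binding protein, was at 10333, while *POU5F1* and *NANOG*, the defining transcription factors, have no listed level and were not analysed here. The part of other cell types in the cadherin levels was not tested.

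Of the cadherins, *CDH6*, *CDH1* and *CDH2* were abundant, *CDH3* was intermediate and *CDH11* was low. *CDH6* (ENSG00000113361), which encodes K-cadherin of the type II family, had a mean normalized count of 61983, more reads than any other of the 10 members. *CDH1* (ENSG00000039068), encoding E-cadherin, followed with 51412, and *CDH2* (ENSG00000170558), encoding N-cadherin, had 37174. These counts are not corrected for length. On a scale per kb, the epithelial and the neural cadherin were both near the top of the genes of these cultures, at percentiles 99.2 and 99.0. *CDH3* (ENSG00000062038), encoding P-cadherin, had 5813, and *CDH11* (ENSG00000140937), encoding a type II cadherin typical of mesenchyme, had 1491.

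A long transcript collects more reads than a short one at the same number of molecules, so that genes were compared per kb of the longest annotated transcript. On this scale *CDH1* was first with 10686 per kb, followed by *CDH2* with 9256 per kb and *CDH6* with 7258 per kb. The order of these 3 genes depended on the length used. With the coding length *CDH6* was first, at 26153 per kb against 19430 per kb for *CDH1*, because its longest transcript of 8540 bases holds a coding sequence of only 2370 bases. With the union of all exons *CDH1* was first again, at 8461 per kb. The level of *CDH1* was 1.15 to 1.95 times that of *CDH2* per kb over the 3 lengths, and that of *CDH6* was 0.589 to 1.35 times that of *CDH1*. Without an error for these means, no order among these 3 cadherins is given.

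*CDH3* and *CDH11* were below *CDH1*, *CDH2* and *CDH6* with each length, though the size of the gap moved with the length. *CDH1* was 8.18 to 9.30 times as high per kb as *CDH3*, and 31.1 to 75.3 times as high as *CDH11*. *CDH3*, at 1306 per kb, lay at percentile 89.1 of all genes per kb, and *CDH11*, at 217 per kb, at percentile 60.4. *CDH11* was above the median of all genes, which was 99.6 per kb, on this scale, but below the median with the coding length, at 625 per kb against 692 per kb for the genes with a coding sequence (percentile 47.8). Of the summed level of the 5 cadherins per kb, *CDH1* made up 37.2%, *CDH2* 32.2%, *CDH6* 25.3%, *CDH3* 4.55% and *CDH11* 0.755%. Over the 3 lengths the share of *CDH1* ranged from 31.2% to 45.0% and that of *CDH6* from 25.3% to 42.0%.

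**Figure D1:**
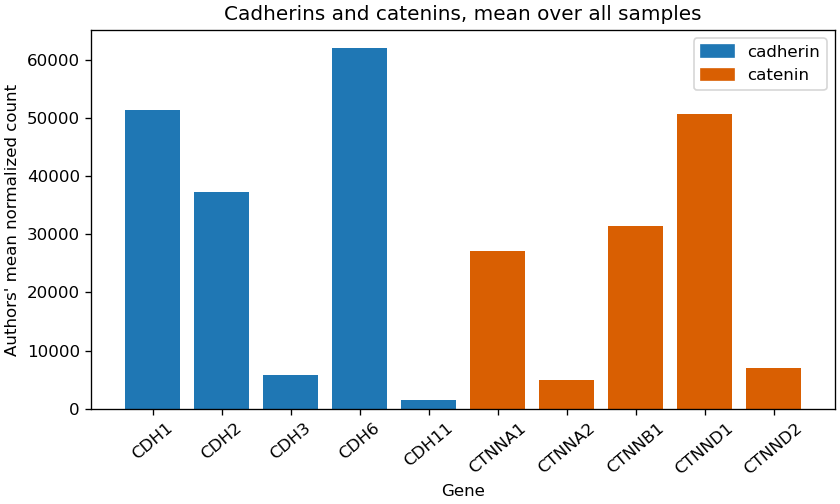
Bars give the authors' mean normalized count (y axis, linear from 0) of each of the 10 genes (x axis) over all samples, with cadherins in blue and catenins in orange; no error bars can be drawn for a pooled mean. *CDH6*, *CDH1* and *CTNND1* stand highest, at 61983, 51412 and 50632, and *CDH11* is lowest at 1491.

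Among the catenins, *CTNNA1* and *CTNND1* were several times as high per kb as their neuronal relatives *CTNNA2* and *CTNND2*. *CTNND1* (ENSG00000198561), encoding p120-catenin, had a mean normalized count of 50632, *CTNNB1* (ENSG00000168036), encoding β-catenin, 31485, and *CTNNA1* (ENSG00000044115), encoding αE-catenin, 27204. *CTNND2* (ENSG00000169862), encoding δ-catenin, and *CTNNA2* (ENSG00000066032), encoding αN-catenin, are best known from neurons and had 7056 and 4893. Per kb, *CTNNA1* was 4.74 to 6.31 times as high as *CTNNA2* and *CTNND1* 3.45 to 9.08 times as high as *CTNND2* over the 3 lengths. *CTNNA2* and *CTNND2* were at percentiles 87.2 and 88.0 of all genes per kb, with 1125 and 1198 per kb of the longest transcript, and at percentiles 70.3 and 72.7 with the coding length. In the same cultures the neuronal tubulin *TUBB3* had a mean normalized count of 311, *MAP2*, a microtubule protein of neurons, had 109 and *PAX6*, a neural and endocrine factor, had 24.7.

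The 3 parts of the core complex were at near levels per kb of the longest transcript, with 7101 for *CTNNA1*, 6715 for *CTNND1* and 6441 for *CTNNB1*. The ratio of *CTNNB1* to *CTNNA1* was 0.907 on this scale and 0.869 to 1.34 over the 3 lengths. The ratio of *CTNND1* to *CTNNB1* was 1.04 to 1.30, and that of *CTNND1* to *CTNNA1* was 0.946 to 1.74. Summed per kb of the longest transcript, the 5 cadherins came to 28723 and the 5 catenins to 22581.

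Over all 10 members, 6 were in the highest 10% of genes per kb, which began at 1414 per kb. These were *CDH1*, *CDH2*, *CDH6*, *CTNNA1*, *CTNNB1* and *CTNND1*, at percentiles 98.3 to 99.2, and they were also the 6 highest members with the coding length and with the union of exons. The other 4 lay between 217 and 1306 per kb. Nearest below the limit were *CDH3*, *CTNND2* and *CTNNA2*, at percentiles 89.1, 88.0 and 87.2 with the longest transcript and 76.4, 72.7 and 70.3 with the coding length. Together the 10 genes held 0.525% of the summed mean normalized counts of all genes.

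**Figure D2:**
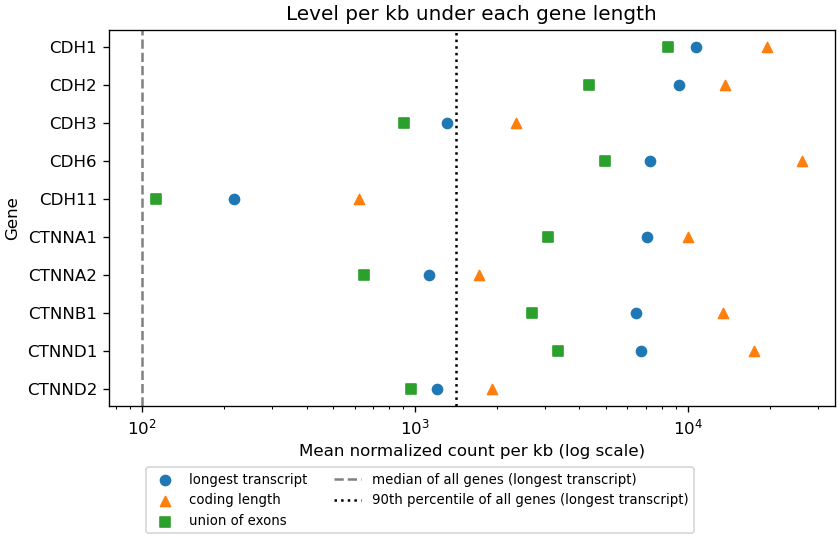
Points give the mean normalized count per kb (x axis, log scale) of each gene (y axis), divided by the longest transcript (circles), the coding length (triangles) or the union of exons (squares), with the median and 90th percentile of all genes per kb of the longest transcript as lines, which apply to the circles only. The 6 highest genes are the same with each length, and *CDH11* is lowest with each.

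The members lie on 6 chromosomes of GRCh38. *CDH1* (chromosome 16, 68737292 to 68835537) and *CDH3* (chromosome 16, 68636189 to 68727468) are neighbours on the same strand, 9823 bases apart, and *CDH11* lies on the other strand of that chromosome from 64943753 to 65126112. *CDH6* (31193686 to 31329146), *CTNND2* (10971836 to 11904446) and *CTNNA1* (138610967 to 138935034) are on chromosome 5. *CDH2* is on chromosome 18 from 27932879 to 28177946, *CTNNA2* on chromosome 2 from 79185231 to 80648861, *CTNNB1* on chromosome 3 from 41194741 to 41260096 and *CTNND1* on chromosome 11 from 57753243 to 57819546. The neuronal *CTNNA2* is the longest, with a span of 1464 kb, and *CTNNB1* the shortest, with 65.4 kb.

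In GENCODE v44, other genes share exon bases with 8 of the members, and reads in shared bases can be left uncounted or assigned to the other gene. The authors counted with GENCODE v32, and whether that annotation holds the same overlaps was not tested. The largest share was that of *CTNND1*, where a protein-coding gene on the same strand (ENSG00000288534) covers 39.1% of its exon bases. That gene has no listed level. A further protein-coding gene on the same strand (ENSG00000254732) covers 12.7% of the exon bases of *CTNND1* and had a mean normalized count of 14.0. For *CDH6* the largest share was 8.91%, with the pseudogene *DUX4L51*, and for *CDH3* it was 8.40%, with the antisense *CDH3-AS1*, which had a mean normalized count of 16.4. *CTNNB1* and *CTNND2* shared no exon bases with another gene. The effect of these overlaps on the levels was not tested.

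Further junction genes were taken from a list of 42 genes in 5 classes, of which 38 had a level. Among 13 other type I and II cadherins, 11 had a level, with a median of 8.60 per kb against 7258 per kb for the 5 members. *CDH10*, a type II cadherin best known from brain, was the exception, with a mean normalized count of 6114 and 1778 per kb, beside 1306 per kb for *CDH3*. *CDH24*, another type II cadherin, had 630 per kb, and the other 9 were between 1.24 and 24.7 per kb, including *CDH5*, the endothelial VE-cadherin, with a mean normalized count of 5.12. *CDH19* and *CDH20* were not analysed here. The members and this list were chosen with earlier results of these data known, so the contrast of their medians is a description only.

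Of 9 other catenins and p120 relatives, 8 had a level, with a median of 919 per kb. *JUP*, which encodes plakoglobin, the closest relative of β-catenin and a part of desmosomes as well, had 4729 per kb. *CTNNB1* was 0.798 to 1.81 times as high as *JUP* per kb over the 3 lengths. *CTNNBIP1*, encoding an inhibitor of the binding of β-catenin to TCF factors, had 2937 per kb. *PKP1*, a plakophilin of desmosomes, was not analysed here.

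Of the 10 actin-linking and junction partners, 6 were in the highest 10% of genes per kb of the longest transcript, 5 per kb of all exons and 3 per kb of coding length. *NECTIN2*, an adhesion receptor of adherens junctions, had 6668 per kb and *ACTN4*, an actin crosslinker, 5859 per kb, beside 6441 per kb for *CTNNB1*. Among the 5 genes of turnover and regulation, *ADAM10*, the protease that sheds the ectodomains of E- and N-cadherin, had 2630 per kb, and *CBLL1*, a ubiquitin ligase for E-cadherin, 951 per kb. The repressors of *CDH1* transcription were lower. *SNAI1* had 923 per kb with a mean normalized count of 1574, *ZEB1* had 45.4 per kb, and *SNAI2* and *TWIST1* had mean normalized counts of 38.9 and 14.3. *ZEB2* was not analysed here.

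**Figure D3:**
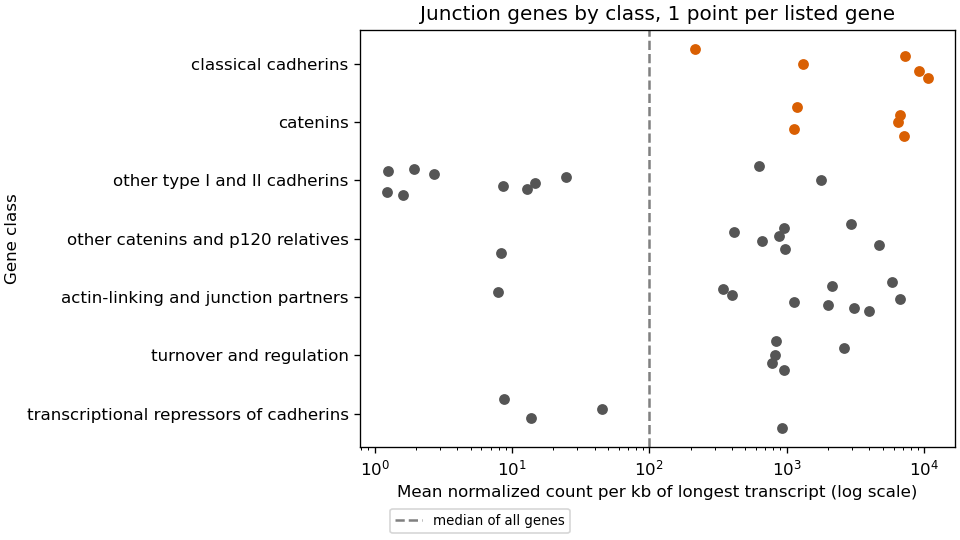
Each point is a gene placed by its mean normalized count per kb of the longest transcript (x axis, log scale), in rows by class (y axis), with the members in orange and the median of all genes as a dashed line. The other cadherins lie mostly at the left, between 1.24 and 24.7 per kb, with *CDH10* at 1778 per kb and *CDH24* at 630 per kb.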

How the data were processed

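Bulk poly(A) RNA sequencing was done by the authors on 18 samples. The authors aligned reads with STAR 2.7.2d to GRCh38 (hg38 in the submitters' processing notes) and counted them per gene with GENCODE v32, and normalized them with DESeq2 1.34.0. Whether the counting used the strand is not given in the sources used here. The deposited signal used here is the authors' mean normalized count, averaged over all samples and not divided by length. The other 5 columns of values hold the authors' own comparisons of LN411 with FN (log2 fold change, standard error, statistic, p-value and adjusted p-value) and were not used. A count test of LN411 against FN, chosen in the design, needs counts per sample and was not run.

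Gene lengths and positions were taken from GENCODE v44 on GRCh38, matched by Ensembl identifier for 21861 of 21944 genes (99.6%). Levels per kb used the longest transcript. Alternatives were the coding length, taken from the longest annotated coding sequence in place of a reference protein, the union of exons, and percentiles among the 19329 genes whose level was 10 or more. A percentile is the share of genes at or below a level. The percentile function was tested on simulated data. The named genes are the 10 members and, in each class of the junction list, the 2 highest per kb and those without a level. The markers named singly, *CDH5*, *SNAI2* and *TWIST1* were chosen after their values were seen. Members and lists were chosen with earlier results of these data known. Python 3.11.15, numpy 2.4.6, pandas 2.3.3 and matplotlib 3.10.9 were used.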

Additional observations from a re-analysis of the deposited data

How the results depend on the processing

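The count of members in the highest 10% of genes per kb was 6 with the longest transcript, with the coding length, with the union of exons and among genes whose level was 10 or more. The level per kb of each gene moved with the length used, by construction. The coding length raised the level of *CDH6* from 7258 to 26153 per kb and the union of exons lowered it to 4981 per kb. With the coding length, which 15359 genes have, *CDH11* fell to percentile 47.8, below the median, and *CDH3* to 76.4, and the count in the highest 10% of genes went from 8 to 4 for the progenitor markers and from 6 to 3 for the junction partners. Among genes whose level was 10 or more, these counts were 6 and 6. Other settings of the count test (normalization, filter, leaving out replicates) were not run. No paired analysis was possible because the values analysed are means over all samples. The replicate error and the depth of single libraries are unknown, so that small differences between members cannot be ranked.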
